A study of Mus musculus with 35 samples.

Results

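The 10 genes described here encode checkpoint ligands, costimulators and related receptors of myeloid cells: Cd274, Pdcd1lg2, Cd80, Cd86, Cd40, Cd276, Havcr2, Lgals9, Pvr and Sirpa. They were taken from a table of read counts for 53379 genes by matching Ensembl gene identifiers to gene symbols of GENCODE M21, a rule that uses no measured value, although the genes were proposed with earlier results of these data known. All 10 were found. Orthotopic pancreatic tumors of T110299 cells, a single line derived from a genetically engineered mouse model of pancreatic cancer, grew in female C57BL/6 mice. On day 18 and day 20 after implantation, treated mice received 50 µg of poly(I:C), a double-stranded RNA mimic, injected into a vein (poly(I:C)c, treated). It was complexed with the polymer in vivo-jetPEI at an N/P ratio of 6. For the control mice (untreated) the paper's methods name glucose, whereas its account of the sequenced mice calls them untreated. All groups carried a tumor. Polymorphonuclear and monocytic myeloid-derived suppressor cells (PMN-MDSC and M-MDSC) were enriched on CD11b beads and sorted from spleen and tumor as CD11b+ Ly6Clow Ly6G+ and CD11b+ Ly6Chigh Ly6G- cells, and bulk tumor came from untreated mice.

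Each group of untreated MDSC held 4 libraries, and so did untreated bulk tumor. Treated groups held 3 libraries of spleen PMN-MDSC, 4 of spleen M-MDSC, 4 of tumor PMN-MDSC and 3 of tumor M-MDSC, after a further treated tumor M-MDSC library with 10 counts in all was left out. Levels are counts per 1000000 counts of the library (CPM), given from the lowest to the highest library of a group, and differences between groups are log2 fold changes ± SE from edgeR's quasi-likelihood test on TMM-scaled counts. A gene was tested where it averaged at least 25 counts over the libraries compared, and called higher or lower at a Benjamini-Hochberg adjusted p under 0.05 over all genes tested. Because fitted fold changes use TMM scaling and CPM uses library totals, a fold change need not equal the ratio of the CPM values. Titles of the samples are numbered by mouse, but the running numbers of the columns were not used, so columns were matched to groups only. Libraries of different sites and cell types may come from the same mice, which the tests do not take into account. The study describes several mice per group, but libraries were not tied to mice here. Comparisons of sites, cell types and bulk tumor were therefore fitted as unpaired. The p-values measure the spread between these libraries, which may in part be technical.

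T cells need a second signal beside the antigen receptor. CD80 and CD86, the B7 proteins of antigen-presenting cells, give that signal through CD28 and a brake through CTLA-4, while PD-L1 (Cd274) and PD-L2 (Pdcd1lg2) engage the inhibitory receptor PD-1. CD40 is the receptor through which helper T cells license antigen-presenting cells, B7-H3 (Cd276) is a B7 relative often found on tumor cells, TIM-3 (Havcr2) is an inhibitory receptor with galectin-9 (Lgals9) among its ligands, the poliovirus receptor CD155 (Pvr) binds TIGIT and DNAM-1, and SIRPα (Sirpa) is the myeloid receptor for CD47. Several of these genes respond to interferons, which poly(I:C) induces.

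The 30 MDSC libraries held 793070 to 4357105 counts and the 4 bulk tumor libraries 3771590 to 8886115, and in the smallest library 3 counts correspond to 3.78 CPM. Sorting labels were checked with lists of marker genes, summed as CPM. Neutrophil markers reached 22674 to 41100.0 CPM in untreated spleen PMN-MDSC but 1069 to 4521 in untreated tumor PMN-MDSC, where macrophage markers reached 10206 to 13732, so the tumor PMN-MDSC libraries carried more macrophage than neutrophil transcripts and go partly against their label. Monocyte markers were between 7858 and 13102 CPM in untreated M-MDSC of both sites. Treated M-MDSC held less of them, 5118 to 6339 CPM in spleen and 3074 to 6230 CPM in tumor. In treated tumor M-MDSC macrophage markers were at 5437 to 29746 CPM, so these libraries also went partly against their label. Spleen M-MDSC carried neutrophil markers too, at 4097 to 10326 CPM untreated and 1044 to 6251 CPM treated. In the untreated ones the median of neutrophil markers (7839 CPM) was near that of monocyte markers (8197 CPM), partly against their label. In 4 libraries other markers or depth stood apart. An untreated spleen PMN-MDSC library with 3769395 counts held 1188 CPM of dendritic cell markers (next 344), a treated spleen M-MDSC library with 2261063 counts held 20944 CPM of B cell markers (next 616), a treated tumor M-MDSC library with 4357105 counts held 29746 CPM of macrophage markers (the others 5437 and 11651), and an untreated tumor M-MDSC library held only 793070 counts. Results were also computed without these 4 libraries, and the values are given where a call changed.

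**Figure D1:**
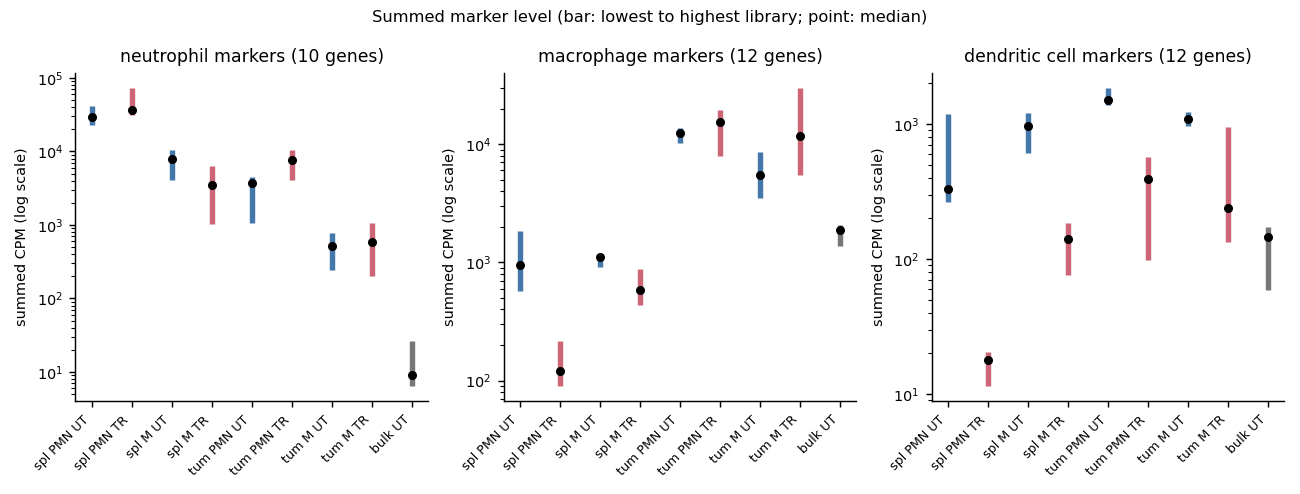
Summed CPM (log axis) of 10 neutrophil, 12 macrophage and 12 dendritic cell marker genes by group. Bars run from the lowest to the highest library, with a point at the median. Untreated groups are in blue, poly(I:C)c in red and bulk tumor in grey. Tumor PMN-MDSC libraries sit at 1069 to 4521 CPM of neutrophil markers when untreated, below every untreated spleen PMN-MDSC library, and above 10206 CPM of macrophage markers.

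Levels of the 10 genes were first compared with one another in untreated cells, as CPM per kilobase of exon (FPKM, with summed exon lengths of GENCODE M21). Sirpa had the highest level per length in 7 of the 8 MDSC groups, with means of 181 FPKM in spleen PMN-MDSC, 199.6 in spleen M-MDSC, 155 in tumor PMN-MDSC and 147 in tumor M-MDSC of untreated mice. Lgals9 and Cd274 took the next place, Lgals9 in 5 and Cd274 in 2 of the 8 groups, and in treated spleen PMN-MDSC Lgals9 (128 FPKM) stood above Sirpa (109). The order of Cd86, Cd80, Havcr2, Cd40 and Pvr changed from group to group. Havcr2 (27.6 FPKM) stood above Cd274 (14.5) in untreated spleen M-MDSC, and Cd86 (37.1) above Cd274 (30.1) in untreated tumor M-MDSC with overlapping libraries. Cd80, for example, averaged 10.8 FPKM in untreated spleen PMN-MDSC and 2.75 in spleen M-MDSC, where Cd40 averaged 1.74 and 12.8. Pdcd1lg2 and Cd276 were the lowest genes in each untreated MDSC group apart from spleen PMN-MDSC, where Pvr (0.411) was below Pdcd1lg2 (1.06), with means of 1.06 to 7.65 FPKM for Pdcd1lg2 and 0.197 to 1.59 for Cd276. In bulk tumor the order was different, with Lgals9 highest at 39.2 FPKM, then Sirpa at 6.54, Cd276 at 5.27 and Pvr at 4.14.

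**Figure D2:**
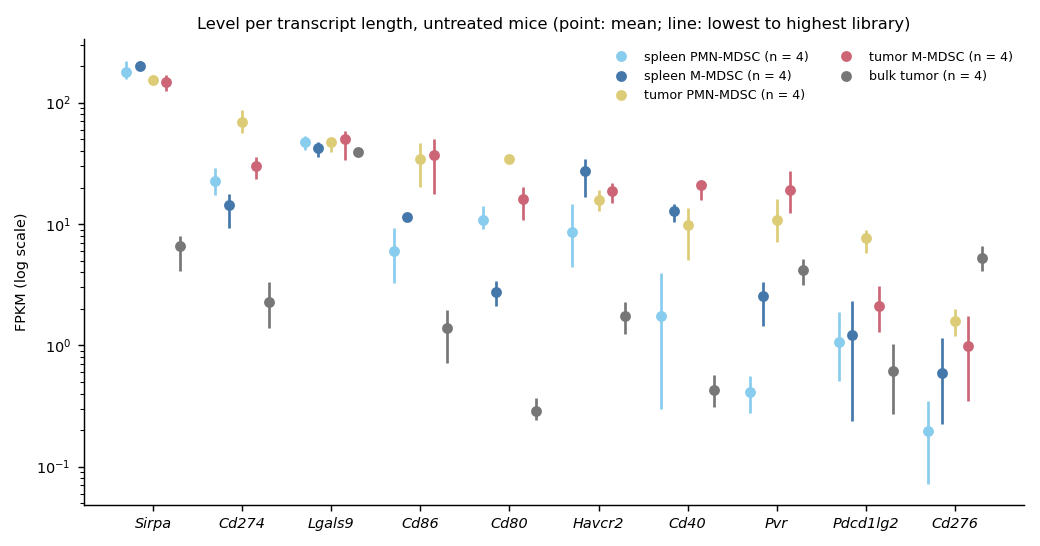
FPKM (log axis) of the 10 genes in the 4 untreated MDSC groups and bulk tumor, with the point at the group mean and the line from the lowest to the highest library. Sirpa is the highest gene in each untreated MDSC group (means of 147 to 199.6 FPKM), and Lgals9 is the highest in bulk tumor.

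The first comparison asked how poly(I:C)c changed the 10 genes in each MDSC population. Lgals9 rose in 3 of the 4 populations and Cd274 in both M-MDSC populations. Havcr2 rose in tumor M-MDSC, and Pvr fell in tumor PMN-MDSC. No other member passed the test in any of the 4 populations. Of 6 members tested in spleen PMN-MDSC, 1 was higher and 0 lower, where 11.6% of all genes tested were called (6.10% higher, 5.52% lower). In spleen M-MDSC 2 of 8 were higher and 0 lower, against 19.6% of all genes (10.7% higher, 8.96% lower). In tumor PMN-MDSC 1 of 9 was higher and 1 lower, against 3.36% of all genes (2.29% higher, 1.07% lower), and in tumor M-MDSC 2 of 9 were higher and 0 lower, against 2.88% (1.82% higher, 1.06% lower). These shares depended on single libraries. With 1 library left out in turn they ran from 4.18% to 13.4% in spleen PMN-MDSC, 12.7% to 20.5% in spleen M-MDSC and 1.32% to 3.29% in tumor PMN-MDSC. In tumor M-MDSC the share was 0.366% without the untreated library with 3604818 counts and 6.02% without the treated library with 2373408 counts. The median log2 fold change of the tested members was -0.55 in spleen PMN-MDSC, 0.56 in spleen M-MDSC, 0.06 in tumor PMN-MDSC and 0.44 in tumor M-MDSC, against medians over all genes tested of 0.01, -0.01, 0.01 and -0.00.

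**Figure D3:**
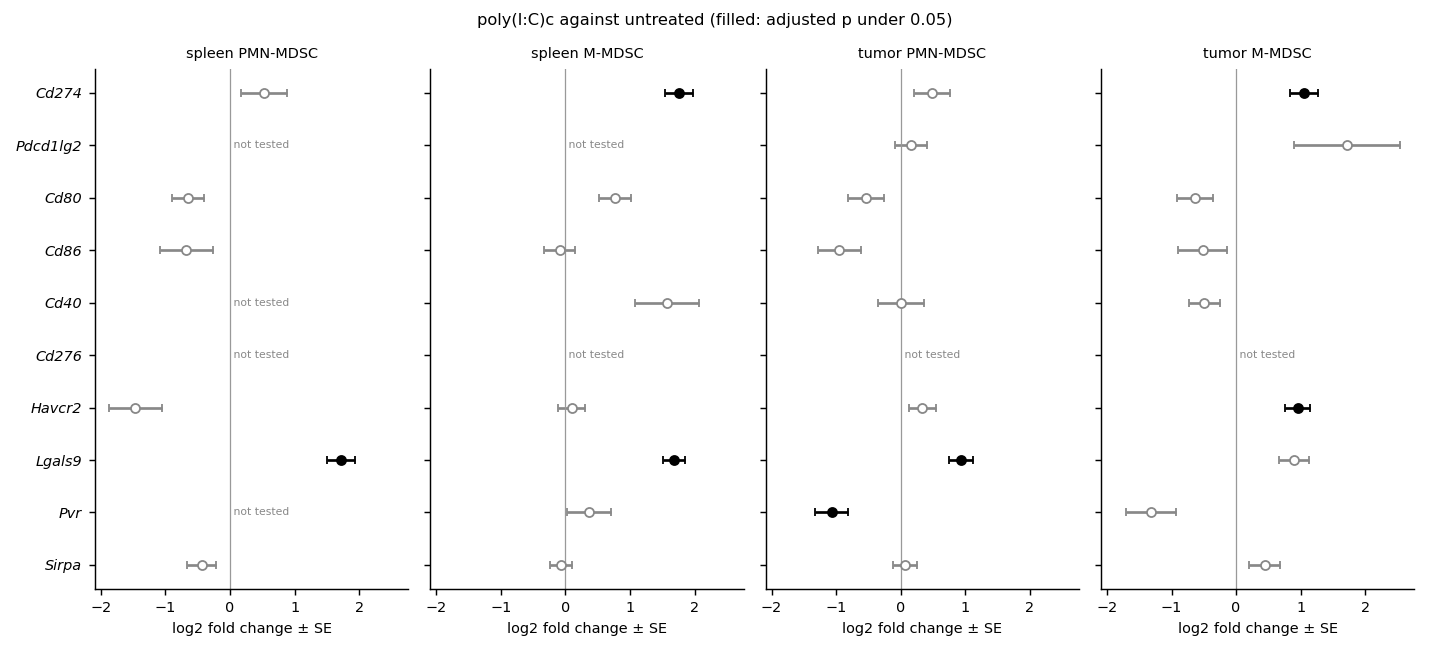
Log2 fold change (poly(I:C)c against untreated, edgeR) of each member in the 4 MDSC populations, with bars of 1 SE and filled points where the adjusted p was under 0.05. Filled points are Lgals9 in 3 populations (0.93 to 1.72), Cd274 in both M-MDSC populations (1.05 and 1.76), Havcr2 in tumor M-MDSC (0.95) and Pvr in tumor PMN-MDSC (-1.07).

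Lgals9 (ENSMUSG00000001123.15, GRCm38 chr11:78962974-78984946, minus strand) encodes galectin-9, a lectin that binds TIM-3 and other glycoproteins. In untreated spleen PMN-MDSC it measured 86.7, 96.6, 106 and 115 CPM and in treated ones 225, 246 and 348 CPM. In spleen M-MDSC the untreated libraries held 76.7, 87.3, 97.6 and 101 CPM and the treated ones 227, 238, 305 and 334 CPM. Treated and untreated libraries of both spleen populations were far apart with no overlap. Lgals9 rose by 1.72 ± 0.22 on the log2 scale in spleen PMN-MDSC (3.29-fold, adjusted p = 0.00368, edgeR) and by 1.68 ± 0.17 in spleen M-MDSC (3.21-fold, adjusted p = 0.000218). In tumor PMN-MDSC it measured 83.5, 101, 109 and 109 CPM untreated and 140.5, 208, 213 and 217 CPM treated, and in tumor M-MDSC 71.9, 117, 117 and 125 CPM untreated and 166, 229.9 and 250.3 CPM treated. The groups did not overlap in either tumor population, although the gap was narrower than in spleen. The log2 change was 0.93 ± 0.19 in tumor PMN-MDSC (adjusted p = 0.0202, a call lost in 4 of the 8 fits that left out 1 library, at up to 0.0778) and 0.90 ± 0.23 in tumor M-MDSC, which missed the threshold (adjusted p = 0.0685, edgeR). Without the 4 libraries that stood apart the latter was 0.94 and passed (adjusted p = 0.0151), and over all alternatives its adjusted p ran from 0.00713 to 0.20. Over the 4 populations together, the 16 untreated libraries spanned 71.9 to 125 CPM and the 14 treated ones 140.5 to 348 CPM. Markers of other cell types also moved in these comparisons, as given below for Cd274, Cd86, Havcr2 and Pvr. Their part in Lgals9 was not tested. The test of a difference in response between tumor and spleen gave an unadjusted p of 0.0202 for PMN-MDSC and 0.0191 for M-MDSC, which did not pass after adjustment (0.186 and 0.235, edgeR interaction terms).

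Because Lgals9 was the member that rose most widely, the letters of an interferon-stimulated response element (GAAA, any 2 bases, GAAA, on either strand) were looked for in the 300 bases around its start in RefSeq's annotation of GRCm38.p6 (250 before to 50 after), together with the windows of 5 other members present in the same table (Cd274, Pdcd1lg2, Cd80, Cd276 and Havcr2). Of all 32851 windows, 1131 (3.44%) held the letters. Among the 6 members they were found only for Lgals9, on the strand opposite to the gene, with the motif ending 46 bases before the start. For comparison the same is shown for Isg15, a ubiquitin-like protein and classical interferon-stimulated gene, whose pattern over the groups was closest to that of Lgals9 and whose window holds 3 overlapping matches. Both are written 5′ to 3′ along the strand of the gene, with the letters of 1 match in capitals (for Isg15 the middle one, while the other two overlap it in lower case), and a match is a description of the letters only.
Lgals9, chr11:78984960-78984989, minus strand: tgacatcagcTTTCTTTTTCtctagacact
Isg15, chr4:156200871-156200900, minus strand: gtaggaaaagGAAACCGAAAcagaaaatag

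A second match in the Lgals9 window lay within the transcribed bases. The letters of a gamma-activated site (TTCNNNGAA) stood in 2726 windows (8.30%) and those of an NF-κB site (GGGA, any 2 bases, TTCC) in 482 (1.47%), with 0 of the 6 members among them in either case. RefSeq's start lies at most 22 bases from the GENCODE 5′ end for 4 of these members, but 404 bases away for Cd276 and 3372 for Cd80. Of the list of 20 interferon-stimulated genes, 16 had a window and 9 of these (56.3%) held the response element. Measured over the 8 MDSC group means of log2(CPM + 1), among 8536 genes, the genes most like Lgals9 were Isg15 (Pearson r = 0.988), Oasl1 (0.973) and Sp140 (0.972). All 3 had a window, and of these 1, that of Isg15, held the response element. These means share their libraries and the split by treatment, and the values are a description.

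Cd274 (ENSMUSG00000016496.7, chr19:29367455-29388095, plus strand) encodes PD-L1. In spleen M-MDSC it measured 33.4, 50.1, 62.1 and 63.8 CPM untreated and 131, 142, 191 and 209.6 CPM treated. Tumor M-MDSC held 84.9, 98.4, 123 and 130.3 CPM untreated and 206, 235 and 286 CPM treated. The treated libraries of both M-MDSC populations were all above the untreated ones. The rise was 1.76 ± 0.22 on the log2 scale in spleen M-MDSC (3.39-fold, adjusted p = 0.000751, edgeR) and 1.05 ± 0.22 in tumor M-MDSC (2.08-fold, adjusted p = 0.0383). The tumor call was lost in 5 of the 7 fits that left out 1 library (adjusted p up to 0.139). In spleen PMN-MDSC Cd274 measured 63.0, 77.7, 84.4 and 104 CPM untreated and 58.3, 80.6 and 149 CPM treated, and in tumor PMN-MDSC 203, 247, 249 and 315 CPM untreated and 241, 273, 445 and 467 CPM treated. In both PMN-MDSC populations the groups overlapped, and neither passed the test. The difference in response between the cell types of the spleen was 1.13 ± 0.45 on the log2 scale and did not pass (adjusted p = 0.118, range over alternatives 0.00923 to 0.237). It was 1.72 and passed without the treated PMN-MDSC library with 2693600 counts (adjusted p = 0.0194). Beside these changes, monocyte markers were at 7858 to 10284 CPM untreated and 5118 to 6339 CPM treated in spleen M-MDSC. Neutrophil markers there were at 4097 to 10326 CPM untreated and 1044 to 6251 CPM treated. Endothelial markers were at 25.7 to 35.2 and 131 to 298 CPM in spleen M-MDSC and at 20.2 to 43.8 and 74.6 to 158 CPM in tumor M-MDSC. Their part in Cd274 was not tested. An opposite-strand gene overlaps an exon of Cd274, but counting was by strand.

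Pdcd1lg2 (ENSMUSG00000016498.9, chr19:29410919-29471161, plus strand), the gene of PD-L2, begins 22823 bases after the end of Cd274. It was detected at few counts in spleen. In untreated spleen PMN-MDSC it measured 0.996, 1.36, 2.25 and 3.71 CPM, and the 3 treated libraries held 0 counts, where 3 counts would correspond to 1.08 to 1.92 CPM. Spleen M-MDSC held 0.464, 2.11, 2.48 and 4.52 CPM untreated and 0.885, 1.69, 2.04 and 2.37 CPM treated. Neither spleen population reached the count needed for the test, and without that filter spleen PMN-MDSC passed (adjusted p = 0.022, edgeR). In tumor PMN-MDSC the levels were higher, at 11.4, 14.1, 17 and 17.6 CPM untreated and 9.91, 18.2, 20.3 and 20.5 CPM treated, with overlapping groups. Tumor M-MDSC held 2.52, 3.85, 4.04 and 6.10 CPM untreated and 2.95, 4.79 and 37.6 CPM treated. The value of 37.6 CPM, from 164 counts, came from the treated library with 29746 CPM of macrophage markers and 952 CPM of dendritic cell markers (the others at most 239.7), and the part of these cells in it was not tested. Pdcd1lg2 passed the test in neither tumor population. In tumor M-MDSC the change was 1.72 ± 0.82 (adjusted p = 0.298, edgeR), and without the filter on low counts it was 1.69 and passed (adjusted p = 0.0145).

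Cd80 (ENSMUSG00000075122.4, chr16:38455561-38496335, plus strand) and Cd86 (ENSMUSG00000022901.13, chr16:36603869-36666081, minus strand), the costimulatory B7 ligands of CD28, did not pass the test for treatment in any population. In spleen PMN-MDSC Cd80 measured 33.7, 34.4, 40.7 and 51.7 CPM untreated and 17.9, 18.0 and 25.6 CPM treated. The groups did not overlap, but the log2 change of -0.65 ± 0.25 missed the threshold (adjusted p = 0.133, edgeR) and passed only with library totals in place of TMM (-0.98, adjusted p = 0.0350), under which the median of all genes was -0.30 against 0.01 with TMM. In spleen M-MDSC Cd80 measured 7.86, 8.36, 11.9 and 12.7 CPM untreated and 12.6, 13.7, 18.1 and 21.6 CPM treated, overlapping by 1 library on each side (0.77 ± 0.25, adjusted p = 0.0606). This change passed with DESeq2 (0.78, adjusted p = 0.0444) and without the treated library with 2535125 counts (0.90, adjusted p = 0.0453). The responses of the 2 spleen populations differed by 1.33 ± 0.36 (adjusted p = 0.0311, edgeR interaction term), with M-MDSC the higher, a call lost in 5 of the 15 fits that left out 1 library (adjusted p up to 0.0794). In that comparison 2 of 8 members passed, both with the higher response in M-MDSC, against 10.9% of all genes (6.45% higher, 4.41% lower). In tumor PMN-MDSC Cd80 measured 119, 126, 132 and 133 CPM untreated and 57.7, 66.5, 81.4 and 151 CPM treated, so that 3 of the 4 treated libraries lay below and 1 above the untreated range. The change was -0.54 ± 0.28 (adjusted p = 0.352, edgeR), and without the high library, with 2192320 counts, it was -0.91 and passed (adjusted p = 0.0437). Tumor M-MDSC held 40.3, 54.6, 65.7 and 75.3 CPM untreated and 28.2, 45.3 and 49.3 CPM treated, with overlap. The responses of tumor and spleen M-MDSC differed by -1.38 ± 0.37 and did not pass (adjusted p = 0.102, range over alternatives 0.0144 to 0.226).

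Cd86 measured 11.9, 18.9, 22.5 and 34.2 CPM in untreated and 6.40, 12.6 and 13.7 CPM in treated spleen PMN-MDSC, and 39.0, 43.0, 43.2 and 43.3 CPM in untreated and 20.8, 33.1, 42.2 and 53.3 CPM in treated spleen M-MDSC. Treated and untreated libraries overlapped in both. In tumor PMN-MDSC the values were 74.5, 85.6, 169 and 169 CPM untreated and 31, 58.4, 81.9 and 95.3 CPM treated, and in tumor M-MDSC 64.3, 123, 171 and 185 CPM untreated and 61.5, 93.1 and 151 CPM treated. Here too the groups overlapped, although 2 treated PMN-MDSC libraries lay below all untreated ones (-0.95 ± 0.33, adjusted p = 0.163, edgeR), a change that passed without the filter on low counts (adjusted p = 0.00191). In tumor M-MDSC Cd86 passed only without the libraries that stood apart (-1.12, adjusted p = 0.0428). Summed dendritic cell markers were also lower in the treated groups. They ranged from 265 to 1188 CPM untreated and 11.5 to 20.4 CPM treated in spleen PMN-MDSC, and from 608 to 1203 and 76.6 to 187 CPM in spleen M-MDSC. In tumor the ranges were 1377 to 1845 and 98.2 to 570.3 CPM in PMN-MDSC, and 973 to 1222 and 135 to 952 CPM in M-MDSC. In such sorted populations fewer cells of a type and less RNA per cell cannot be told apart, and the part of dendritic cells in the levels of Cd80, Cd86 and Cd40 was not tested.

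Cd40 (ENSMUSG00000017652.16, chr2:165055627-165072948, plus strand), the receptor for CD40 ligand, was low in spleen PMN-MDSC, with 1.02, 3.98, 5.14 and 13.5 CPM untreated and 0.743, 1.44 and 2.56 CPM treated, and was not tested there. Spleen M-MDSC held 35.6, 40.4, 48.0 and 50.2 CPM untreated and 32.7, 101, 111 and 245 CPM treated. Of the treated libraries 3 lay above and 1 below every untreated library, and the low one was the library with 20944 CPM of B cell markers. The change of 1.57 ± 0.50 missed the threshold (adjusted p = 0.0578, edgeR, range over alternatives 0.00415 to 0.238). It passed with DESeq2, and without that library it was 1.92 and passed (adjusted p = 0.00415, edgeR). In tumor PMN-MDSC Cd40 measured 17.3, 29.9, 41.2 and 46.1 CPM untreated and 14.6, 31.9, 39.3 and 50.9 CPM treated, and in tumor M-MDSC 54.1, 75.3, 76.8 and 76.9 CPM untreated and 40.2, 53.9 and 66.7 CPM treated. Tumor libraries overlapped in both populations. The difference between the responses of tumor and spleen M-MDSC was -2.04 ± 0.61 and did not pass (adjusted p = 0.144, range over alternatives 7.38e-08 to 0.326), but without the library rich in B cell markers it was -2.39 and passed (adjusted p = 0.02). It stood in a comparison where 0.790% of all genes were called (0.229% higher, 0.561% lower in tumor). There 0 of the 8 members tested passed with edgeR and 2 with DESeq2 (3.52% of all genes), and 6 had an unadjusted p under 0.05 with edgeR (14.2% of all genes). Between the cell types of the spleen the response of Cd40 differed by 3.25 ± 1.06 and did not pass (adjusted p = 0.0625, range over alternatives 4.53e-09 to 0.183). It passed without the library rich in B cell markers (3.57, adjusted p = 0.0253) or without the untreated PMN-MDSC library with 2952021 counts (3.77, adjusted p = 0.0198). For both differences in the response of Cd40, the lowest adjusted p came from an alternative other than leaving out 1 library.

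Havcr2 (ENSMUSG00000020399.14, chr11:46454935-46481255, plus strand) encodes TIM-3, a receptor of galectin-9. In tumor M-MDSC it measured 40.4, 46.2, 59.3 and 59.4 CPM untreated and 99.4, 108 and 109.8 CPM treated. The 3 treated libraries lay close together and above all untreated ones, and Havcr2 rose by 0.95 ± 0.19 on the log2 scale (1.94-fold, adjusted p = 0.0369, edgeR), a call lost in 5 of the 7 fits that left out 1 library (adjusted p up to 0.133). In the same comparison macrophage markers were at 3489 to 8566 CPM untreated and 5437 to 29746 CPM treated, and monocyte markers at 9649 to 13102 and 3074 to 6230 CPM. Their part in the changes of Havcr2 and Cd274 was not tested. In spleen PMN-MDSC the direction was the opposite, with 12, 18.0, 24.1 and 39.8 CPM untreated and 6.48, 7.04 and 7.05 CPM treated. All treated libraries were below the untreated ones, but the change of -1.46 ± 0.41 missed the threshold (adjusted p = 0.0522, range over alternatives 0.0006 to 0.152). It passed with DESeq2 (adjusted p = 0.0142), upper-quartile scaling (0.0374), library totals (0.03), without the filter (0.0079), in 1 fit over all groups (0.0006) and without the untreated library with 2008010 counts (-1.64, adjusted p = 0.0317). Its highest untreated value, 39.8 CPM, came from the library with 1851 CPM of macrophage and 1188 CPM of dendritic cell markers, and without that library the change was -1.13 (adjusted p = 0.0795). Macrophage markers in spleen PMN-MDSC were at 569.8 to 1851 CPM untreated and 90.4 to 218 CPM treated, and their part in Havcr2 was not tested. Spleen M-MDSC held 45.1, 80.3, 80.7 and 94.0 CPM untreated and 57.5, 72.8, 85.2 and 89.5 CPM treated, and tumor PMN-MDSC 35.1, 35.8, 48.4 and 52.0 CPM untreated and 42, 49.1, 57.5 and 73.0 CPM treated. These groups overlapped and did not pass. Of the 8 members tested, Havcr2 was the one whose response differed between tumor and spleen PMN-MDSC (1.82 ± 0.42, adjusted p = 0.0272, interaction term, against 3.50% of all genes, 3.17% higher and 0.336% lower), with the tumor response the higher. That call was lost in 6 of the 15 fits that left out 1 library (adjusted p up to 0.0935). Without the filter on low counts Pdcd1lg2, at 0 counts in treated spleen PMN-MDSC, passed there too (adjusted p = 0.00377). The response of Havcr2 also differed between the cell types of the spleen (1.49 ± 0.45, adjusted p = 0.0483), a call that was lost without the libraries that stood apart (1.25, adjusted p = 0.0604) and in 12 of the 15 fits that left out 1 library (adjusted p up to 0.112). Between tumor M-MDSC and tumor PMN-MDSC the difference in its response was 0.62 ± 0.29 (unadjusted p = 0.0453, adjusted p = 0.574), and there 0 of 9 members passed with edgeR or DESeq2, 1 had an unadjusted p under 0.05 with edgeR (8.59% of all genes), and 0.0239% of all genes passed.

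Pvr (ENSMUSG00000040511.14, chr7:19903578-19921160, minus strand) encodes CD155, a nectin-like adhesion molecule. In tumor PMN-MDSC it measured 43.3, 54.1, 69.1 and 98.3 CPM untreated and 25.1, 26.3, 32.3 and 44.4 CPM treated. The treated libraries were lower apart from an overlap of 1 library on each side, and Pvr fell by 1.07 on the log2 scale (SE 0.26, 2.10-fold lower, adjusted p = 0.0457, edgeR). The call was lost in 6 of the 8 fits that left out 1 library (as small as -0.83, adjusted p = 0.13, without the untreated library with 1648775 counts), in 1 fit over all groups (0.0762) and with library totals (0.0687). Beside it, epithelial markers were at 135 to 830.3 CPM untreated and 72.8 to 199 CPM treated, monocyte markers at 4692 to 9026 and 1950.4 to 3791 CPM, and neutrophil markers at 1069 to 4521 and 4091 to 10333 CPM. Their part in the change was not tested. Tumor M-MDSC held 75.7, 92.3, 136 and 167 CPM untreated and 28, 47.5 and 77.5 CPM treated, a change of -1.32 ± 0.38 that missed the threshold (adjusted p = 0.0986, range over alternatives 4.91e-05 to 0.266). It passed with DESeq2 (adjusted p = 0.0204), in 1 fit over all groups (0.0221), without the filter on low counts, and without the treated library with 2373408 counts (-1.76, adjusted p = 0.0378). Spleen M-MDSC held 8.83, 14.2, 19.5 and 20.5 CPM untreated and 11.1, 14.6, 23 and 28.2 CPM treated, with overlap. Spleen PMN-MDSC were at 1.69, 1.93, 2.99 and 3.45 CPM untreated and 0, 0.720 and 1.92 CPM treated, near or below the level of 3 counts in the treated libraries, and Pvr was not tested there.

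Sirpa (ENSMUSG00000037902.18, chr2:129592835-129632228, plus strand), the receptor for the CD47 signal that restrains phagocytosis, passed the test for treatment in no population. Spleen PMN-MDSC held 763, 850.0, 859 and 1075 CPM untreated and 503, 506 and 597 CPM treated, without overlap. The change there was -0.44 ± 0.23 (adjusted p = 0.249, edgeR) and passed only with library totals (-0.74, adjusted p = 0.0289). Under library totals the median of all genes was -0.30, against 0.01 with TMM. Means ± SD with TMM factors were 1016 ± 202 CPM untreated and 743 ± 117 CPM treated. In spleen M-MDSC the values were 908, 943, 977 and 1092 CPM untreated and 611, 938, 994 and 1019 CPM treated. Tumor PMN-MDSC held 705, 758, 759 and 828 CPM untreated and 532, 816, 942 and 995 CPM treated, and tumor M-MDSC 612, 691, 755 and 827 CPM untreated and 828, 852 and 1458 CPM treated. The highest of these, 1458 CPM, belonged to the library rich in macrophage markers. Reads of Sirpa may be split with its close relatives Sirpb1a, Sirpb1b and Sirpb1c.

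Cd276 (ENSMUSG00000035914.11, chr9:58524298-58555437, minus strand), the gene of B7-H3, was under the count needed for the treatment test in all 4 populations. In spleen M-MDSC it measured 0.828, 0.929, 2.62 and 4.22 CPM untreated and 3.98, 8.28, 9.90 and 11.1 CPM treated. In the other populations the untreated and treated ranges were 0.265 to 1.28 and 0 to 0.720 CPM (spleen PMN-MDSC), 4.40 to 7.28 and 3.01 to 9.31 CPM (tumor PMN-MDSC) and 1.26 to 6.38 and 6.74 to 14.7 CPM (tumor M-MDSC). Both M-MDSC populations held more Cd276 counts when treated, with overlap in spleen and none in tumor, and at these levels single libraries rest on few counts. In spleen M-MDSC the 2 alternatives that tested Cd276 both called it higher. The rise was 2.05 without the filter (adjusted p = 0.000934, edgeR) and 2.07 in 1 fit over all groups (adjusted p = 0.00289). In tumor M-MDSC no alternative that tested Cd276 called it (adjusted p from 0.117 to 0.291, edgeR). The lowest untreated tumor M-MDSC library held 1 count of it. An opposite-strand gene overlaps an exon of Cd276.

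**Figure D4:**
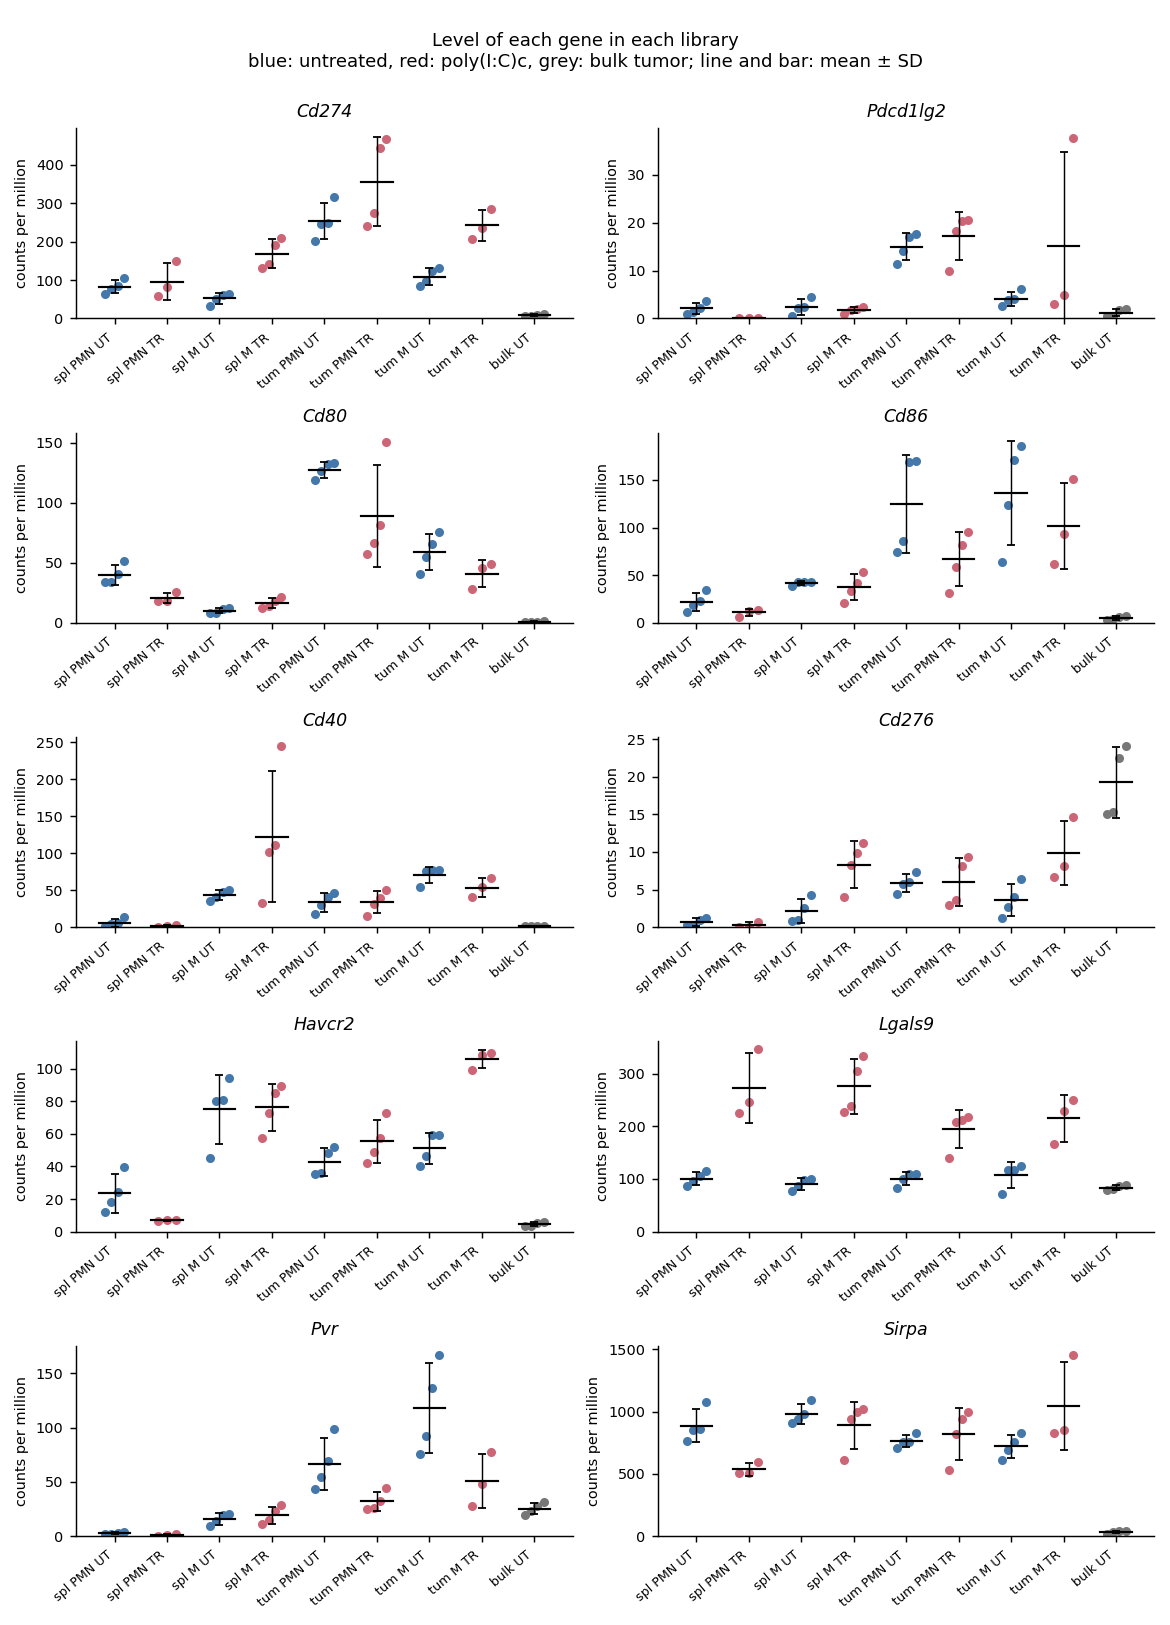
CPM of the 10 genes in each of the 34 libraries, 1 panel per gene, with untreated groups in blue, poly(I:C)c in red and bulk tumor in grey, and the mean with its SD (bars end at 0). Lgals9 shows all 16 untreated MDSC libraries at 71.9 to 125 CPM and all 14 treated ones at 140.5 to 348 CPM, and Pvr is at most 28.2 CPM in spleen.

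The next comparison set tumor against spleen in untreated mice. Pvr, Cd80, Cd86, Cd40 and Cd274 were higher in tumor in both cell types, Havcr2 passed in PMN-MDSC and Lgals9 in M-MDSC, and no member passed as lower. In PMN-MDSC 6 of 8 members tested were higher, where 59.1% of all genes were called (29.4% higher, 29.7% lower), and in M-MDSC 6 of 8 were higher, where 28.4% were called (15.7% higher, 12.7% lower). The median log2 difference of the members was 1.51 in PMN-MDSC and 1.13 in M-MDSC, against 0.01 and 0.02 over all genes tested.

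Pvr showed the widest difference. In PMN-MDSC its untreated tumor libraries (43.3 to 98.3 CPM) were 4.57 ± 0.34 above those of spleen (1.69 to 3.45 CPM) on the log2 scale, or 23.7-fold (adjusted p = 5.4e-06, edgeR). In M-MDSC the difference between 75.7 to 167 CPM in tumor and 8.83 to 20.5 CPM in spleen was 3.15 ± 0.29, or 8.86-fold (adjusted p = 9.79e-06). No library of either site reached the range of the other. Epithelial tumor cell markers, at 106 to 830.3 CPM in the untreated tumor MDSC libraries and 6.86 to 34.9 CPM in those of spleen, moved in the same direction, and the part of these cells in Pvr was not tested.

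Values for PMN-MDSC are given first and those for M-MDSC second. Cd80 was higher in tumor by 1.54 ± 0.17 (2.91-fold, adjusted p = 5e-05, edgeR) and 2.80 ± 0.23 (6.97-fold, adjusted p = 3.49e-06). Cd86 was higher by 2.37 ± 0.35 (5.19-fold, adjusted p = 0.000271) and 1.97 ± 0.25 (3.91-fold, adjusted p = 0.000127). Tumor and spleen libraries of both genes were separate in both cell types. Cd40 was higher by 2.33 ± 0.53 (adjusted p = 0.00352) and 0.94 ± 0.18 (adjusted p = 0.00188), and Cd274 by 1.48 ± 0.23 (2.78-fold, adjusted p = 0.000372) and 1.31 ± 0.21 (2.48-fold, adjusted p = 0.000675). Again there was no overlap, although in 1 fit over all groups Cd40 in M-MDSC did not pass (0.95 ± 0.43, adjusted p = 0.117). Havcr2 in PMN-MDSC was higher by 0.75 ± 0.29 with overlapping libraries (adjusted p = 0.0472), and Lgals9 in M-MDSC by 0.52 ± 0.17, also with overlap (adjusted p = 0.0403). With 1 library left out, the call of Havcr2 was lost in 5 of 8 fits (adjusted p up to 0.12) and that of Lgals9 in 6 of 8 (up to 0.135). Lgals9 was also lost in 1 fit over all groups (0.51, adjusted p = 0.0683), with upper-quartile scaling (0.37, adjusted p = 0.141) and with library totals (0.27, adjusted p = 0.255), under which last 2 the median of all genes was -0.13 and -0.24, against 0.02 with TMM. Sirpa differed by -0.37 ± 0.20 (adjusted p = 0.13) and -0.18 ± 0.12 (adjusted p = 0.285), and passed as lower in tumor PMN-MDSC in 1 fit over all groups (-0.54, adjusted p = 0.0296) and in tumor M-MDSC with library totals (-0.45, adjusted p = 0.019). Pdcd1lg2 and Cd276 were under the count needed for the test. Without that filter both were higher in tumor PMN-MDSC, by 2.55 (adjusted p = 1.29e-07) and 2.77 (adjusted p = 0.000706), and neither passed in M-MDSC (adjusted p = 0.266 and 0.229). Macrophage markers stood at 10206 to 13732 CPM in tumor and 569.8 to 1851 CPM in spleen PMN-MDSC, and at 3489 to 8566 CPM in tumor and 917 to 1174 CPM in spleen M-MDSC, and dendritic cell markers in PMN-MDSC at 1377 to 1845 CPM in tumor and 265 to 1188 CPM in spleen. Their part in these differences was not tested.

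**Figure D5:**
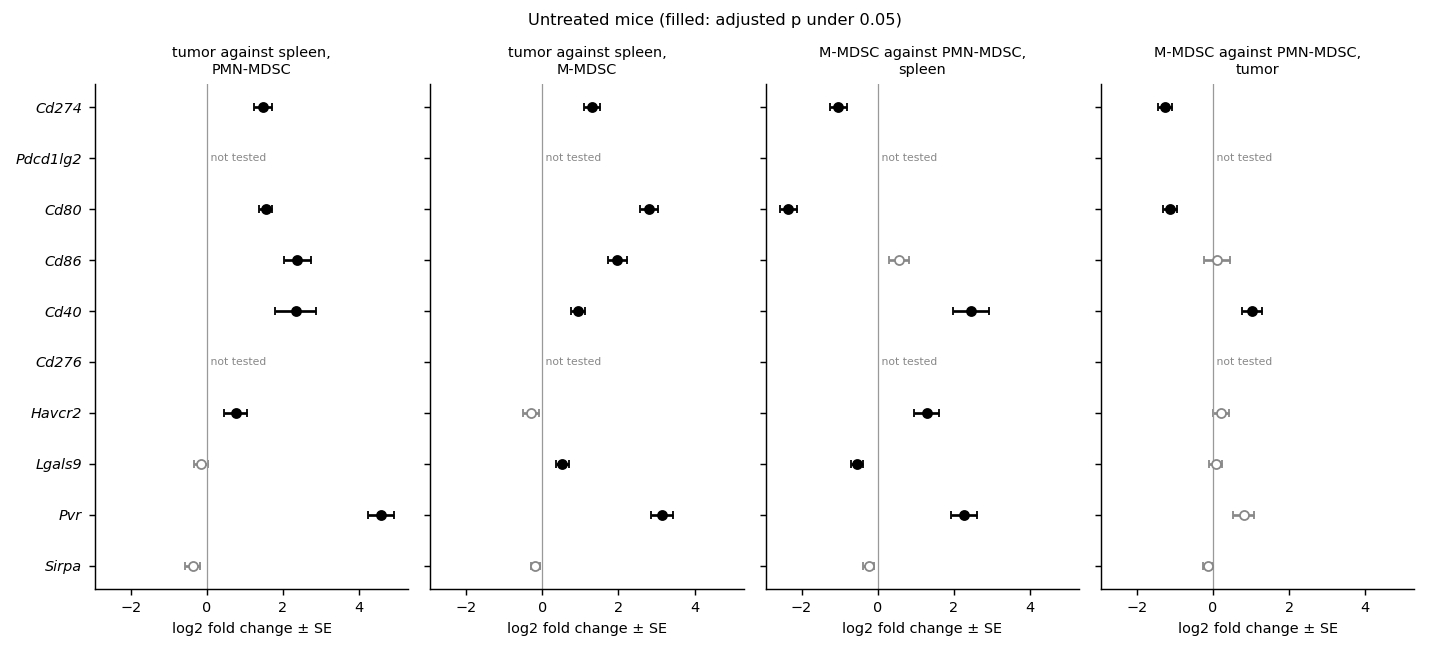
Log2 difference ± 1 SE (edgeR) of each member between tumor and spleen in untreated PMN-MDSC and M-MDSC, and between M-MDSC and PMN-MDSC in untreated spleen and tumor, with filled points where the adjusted p was under 0.05. Pvr is the farthest from 0 in both tumor comparisons (4.57 and 3.15), and in the cell type comparisons Cd274 and Cd80 are below 0 and Cd40 above 0 at both sites.

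M-MDSC were then compared with PMN-MDSC of the same site in untreated mice. At both sites Cd274 and Cd80 were lower and Cd40 was higher in M-MDSC. In spleen 3 of 8 members tested were higher and 3 lower, with 64.4% of all genes called (33.4% higher, 30.9% lower), and in tumor 1 was higher and 2 lower of 8, with 13.0% called (5.73% higher, 7.25% lower). The medians of the members were 0.16 in spleen and 0.08 in tumor, against 0.08 and 0.01 over all genes.

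Cd80 was lower in M-MDSC, with log2 differences of -2.35 ± 0.22 in spleen (5.08-fold lower, adjusted p = 2.5e-05, edgeR) and -1.14 ± 0.18 in tumor (2.20-fold lower, adjusted p = 0.00135), without overlap. The log2 difference of Cd274 was -1.03 ± 0.22 in spleen (adjusted p = 0.00298), where the highest M-MDSC library (63.8 CPM) just overlapped the lowest of PMN-MDSC (63.0 CPM), and -1.26 ± 0.19 in tumor (adjusted p = 0.00118), where the groups were separate. Cd40 was higher by 2.44 ± 0.48 in spleen (5.44-fold, adjusted p = 0.00161) and by 1.02 ± 0.26 in tumor (2.03-fold, adjusted p = 0.0204), where the call was lost in 3 of the 8 fits that left out 1 library and in 1 fit over all groups (adjusted p up to 0.13). Pvr and Havcr2 passed in spleen, by 2.27 ± 0.35 (4.83-fold, adjusted p = 0.000401) and 1.29 ± 0.32 (2.44-fold, adjusted p = 0.00612), and whether these differences changed with the site was not tested. Havcr2 did not pass in tumor. In tumor Pvr differed by 0.81 ± 0.28 and missed the threshold (adjusted p = 0.0765), and it passed without the untreated M-MDSC library with 793070 counts (0.95, adjusted p = 0.0402) and without the untreated PMN-MDSC library with 1648775 counts (1.05, adjusted p = 0.0217). Lgals9 was lower in spleen M-MDSC (-0.53 ± 0.16, adjusted p = 0.0143), but its libraries overlapped and the call was lost without the M-MDSC library with 4200907 counts (-0.42, adjusted p = 0.0712), with library totals (-0.15, adjusted p = 0.365) or upper-quartile scaling (-0.29, adjusted p = 0.151), under which the median of all genes was 0.46 and 0.33, against 0.08 with TMM. Cd86 in spleen differed by 0.57 ± 0.26 and missed the threshold (adjusted p = 0.0782), and without the library rich in dendritic cell markers it was higher by 0.84 (adjusted p = 0.00604). Sirpa passed at neither site. Pdcd1lg2 and Cd276 were under the count needed for the test, and without that filter Pdcd1lg2 was lower in tumor M-MDSC (-1.71, adjusted p = 0.00268). In untreated tumor the macrophage markers were at 10206 to 13732 CPM in PMN-MDSC and 3489 to 8566 CPM in M-MDSC, and the dendritic cell markers at 1377 to 1845 and 973 to 1222 CPM. In untreated spleen the neutrophil markers were at 22674 to 41100.0 CPM in PMN-MDSC and 4097 to 10326 CPM in M-MDSC, the macrophage markers at 569.8 to 1851 and 917 to 1174 CPM, and the dendritic cell markers at 265 to 1188 and 608 to 1203 CPM. Their part in the differences of Cd274, Cd80 and Cd40 was not tested.

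Untreated bulk tumor was compared with the MDSC sorted from untreated tumors. Cd276 was the only member higher in bulk tumor, and the other 8 members tested were lower, against both MDSC populations. Of all genes tested, 69.5% were called against PMN-MDSC (36.1% higher, 33.3% lower in bulk) and 69.2% against M-MDSC (38.2% higher, 31% lower). The median log2 difference of the 9 members was -4.80 and -3.88, against 0.09 and 0.17 over all genes. Cd276 measured 15.1, 15.4, 22.6 and 24.1 CPM in bulk tumor and 4.40 to 7.28 CPM in PMN-MDSC and 1.26 to 6.38 CPM in M-MDSC, and was higher by 1.45 ± 0.27 (2.72-fold, adjusted p = 0.000493, edgeR) and 2.01 ± 0.37 (4.03-fold, adjusted p = 0.000466). The 4 bulk libraries were above all tumor MDSC libraries, treated ones included. Bulk tumor also held 5193 to 6732 CPM of epithelial and 868 to 1126 CPM of fibroblast markers, against 106 to 830.3 and 1.26 to 53.6 CPM in untreated tumor MDSC, and the part of these cells in Cd276 was not tested.

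Cd80 was nearly absent from bulk tumor, with 0.900, 0.925, 1.06 and 1.37 CPM. Its log2 difference was -7.17 ± 0.21 against PMN-MDSC (144-fold lower, adjusted p = 2.04e-09, edgeR) and -5.96 ± 0.30 against M-MDSC (62.4-fold lower, adjusted p = 2.79e-08). Cd274 measured 5.02, 6.36, 9.79 and 12 CPM, Cd86 2.64, 4.51, 5.96 and 7.21 CPM, Cd40 1.06, 1.24, 1.59 and 1.95 CPM and Havcr2 3.38, 3.70, 5.57 and 6.18 CPM. Each of these 4 genes was lower in bulk than in any tumor MDSC library. Pvr measured 19.4, 22.9, 27.9 and 31.3 CPM, below every untreated tumor MDSC library and overlapping the treated ones. Sirpa, at 20.2, 31.8, 37.3 and 39.2 CPM in bulk tumor, was 29.2-fold below PMN-MDSC and 25.7-fold below M-MDSC. Lgals9 was nearest to its level in MDSC, with 78.6, 81.9, 86.4 and 87.9 CPM in bulk tumor, within the range of the untreated MDSC libraries. Its log2 differences of -0.56 ± 0.14 (adjusted p = 0.00343) and -0.57 ± 0.19 (adjusted p = 0.0186) were lost with library totals and upper-quartile scaling, under which the median of all genes was 0.36 to 0.39, against 0.09 and 0.17 with TMM, and the one against M-MDSC also in 5 of the 8 fits that left out 1 library (adjusted p up to 0.0813). Pdcd1lg2, at 0.529, 0.530, 1.72 and 2.03 CPM, was under the count needed for the test, and without that filter it was lower than in PMN-MDSC (-3.58, adjusted p = 9.78e-17) and M-MDSC (-1.81, adjusted p = 0.00395).

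At the study's stricter threshold (2-fold or more at an adjusted p under 0.001, edgeR), Lgals9 and Cd274 still passed for treatment in spleen M-MDSC, 2 members against 2.47% of all genes. None passed in spleen PMN-MDSC, tumor PMN-MDSC and tumor M-MDSC, where 0.0413%, 0.241% and 0.0120% of all genes did. Cd274, Cd80, Cd86 and Pvr, 4 members, passed between tumor and spleen in PMN-MDSC (21.7% of all genes) and in M-MDSC (8.60%). Cd80 and Pvr passed between the cell types of the spleen (23.2%), and 0 members between those of the tumor (1.65%). Against bulk tumor 8 members passed in each cell type (40.1% of all genes in PMN-MDSC, 41.9% in M-MDSC), and for the differences in response 0 did, where at most 0.119% of all genes passed (0.0115% between tumor and spleen M-MDSC).

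Genes that act beside the 10 members were taken as lists. The counts that follow are to be read against the share of all genes called, 11.6% in spleen PMN-MDSC, 19.6% in spleen M-MDSC, 3.36% in tumor PMN-MDSC and 2.88% in tumor M-MDSC. Of 20 interferon-stimulated genes tested, 18 rose and 0 fell in treated spleen PMN-MDSC, 20 and 0 in spleen M-MDSC, 18 and 0 in tumor PMN-MDSC and 10 and 0 in tumor M-MDSC, with median log2 fold changes of 3.20, 2.82, 2.68 and 2.04. Lgals9 and Cd274 rose less than these medians wherever they passed. Of the regulators of Cd274 (interferon receptors, JAK and STAT proteins and the stability factors of PD-L1), 2 of 22 rose in spleen PMN-MDSC, the interferon signal transducer Stat2 by 2.67 and the feedback inhibitor Socs1 by 1.24. In spleen M-MDSC 4 of 23 rose and 2 fell, Stat2 by 1.47 among the former and the interferon-γ receptor chain Ifngr1 at -1.15 among the latter. In tumor PMN-MDSC 2 of 24 rose (Stat2 by 1.42 and its partner Irf9 by 1.08), and in tumor M-MDSC 0 of 24 rose and the hypoxia factor Hif1a fell (-1.51).

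Of 20 genes of CD40 and NF-κB signalling, 1 rose in spleen PMN-MDSC (the inhibitor Nfkbia, by 1.41), 5 rose and 1 fell in spleen M-MDSC, including Nfkbia (1.38) and the TRAF-binding adaptor Tank (1.33), and 0 passed in either tumor population. Of a list of other checkpoint genes (B7 relatives, TNF ligands, nectins and galectins, but also inhibitory receptors of myeloid cells such as Pirb and Lilrb4a and other genes such as Calr), 2 of 16 rose in spleen PMN-MDSC and 3 of 19 in spleen M-MDSC. In tumor 1 of 20 rose in PMN-MDSC, and 1 of 20 rose and 1 fell in M-MDSC. Galectin-3 (Lgals3) was among those that rose, by 1.07 in spleen and 0.87 in tumor PMN-MDSC, and the TNF ligand Tnfsf14 was the one that fell (-1.98 in tumor M-MDSC). In the SIRP family and its signalling, 1 of 9 fell in spleen PMN-MDSC (Sirpb1c, -2.09), 1 rose and 1 fell in spleen M-MDSC, 1 rose in tumor PMN-MDSC (Sirpb1a, by 1.09), and 1 fell in tumor M-MDSC (Thbs1, a CD47 ligand, -2.11). Of 14 receptors of T and NK cells, some of which bind members and others (such as Icos and Lag3) do not, none reached the count needed for the test in spleen, and 0 of the 2 tested passed in each tumor population.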

How the data were processed

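The values analysed were read counts per gene of 34 libraries, made by the authors from SMARTer Stranded Total RNA (Pico, v2) libraries without molecular identifiers, mapped to GRCm38 with ContextMap (BWA inside) and counted by strand with featureCounts (Subread 1.4.6-p3) on Gencode v16, and deposited as raw counts. Columns were assigned to groups by the parts of their names. Neither the running numbers of the columns nor their order was used to tie columns to sample titles. The members and the gene and marker lists were chosen with earlier results of these data known. Each comparison was fitted on its own groups in R 4.3.3 with edgeR 4.0.16 (TMM, robust quasi-likelihood F-test, two-sided, over genes averaging 25 counts or more, Benjamini-Hochberg over all genes tested), in place of the study's DESeq2, which was an alternative (1.42.0). Differences between responses were interaction terms over 4 groups. All 10 members were followed in every comparison, along with up to 3 genes with the smallest adjusted p of a list and the 3 genes most like a member. Other alternatives were RLE and upper-quartile scaling, no filter, 1 fit over all groups, the study's threshold (adjusted p under 0.001 and 2-fold) and leaving out each library, and, chosen after seeing the data, library-total scaling and leaving out 4 libraries. The scripts were tested on simulated counts. Of 48 pairs of libraries within groups, 0 held identical counts. No columns of comparisons made by the authors were used. Levels and floors of 3 counts cover counting error only. RefSeq windows were matched by symbol (6 of 10 members).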

Additional observations from a re-analysis of the deposited data

Results flagged for a closer look

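Of the 10 genes in the 7 groups of 4 libraries, 70 sets of values that share the same libraries and are not independent, 4 held a lowest library far from the other 3 by Dixon's test at the 95% level, which chance alone gives in about 1 of 20 sets. Cd86 was 39.0 CPM in 1 untreated spleen M-MDSC library (the others 43.0 to 43.3), a narrow range. Cd40 was 54.1 CPM in 1 untreated tumor M-MDSC library (the others 75.3 to 76.9). Lgals9 was 71.9 CPM in the untreated tumor M-MDSC library with 793070 counts (the others 117 to 125) and 140.5 CPM in 1 treated tumor PMN-MDSC library (the others 208 to 217).

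Responses to poly(I:C)c differed between groups by an interaction term (edgeR) for Havcr2 between tumor and spleen PMN-MDSC (log2 difference 1.82, adjusted p = 0.0272), and between spleen M-MDSC and spleen PMN-MDSC for Cd80 (1.33, adjusted p = 0.0311) and Havcr2 (1.49, adjusted p = 0.0483). With 1 library left out in turn, these calls were lost in 6, 5 and 12 of 15 fits, and the last was also lost without the 4 libraries that stood apart (1.25, adjusted p = 0.0604).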

How the results depend on the processing

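Of 140 pairs of a member and a comparison, 115 were tested and 49 passed, 35 of them in every alternative apart from the study's stricter threshold. A further 20 passed only in an alternative. Of the 46 that never passed, 19 changed sign in some alternative, and 0 of the others did. No paired analysis was possible because the column names do not carry the numbers of the sample titles. The counts of members that passed moved as follows. For treatment in spleen PMN-MDSC (1) it was 0 at the study's threshold, 2 with DESeq2, upper-quartile scaling or 1 fit over all groups, 3 without the filter and 4 with library totals. In spleen M-MDSC (2) DESeq2 and 1 fit over all groups gave 4, and no filter or leaving out the 4 libraries gave 3. In tumor PMN-MDSC (2) the study's threshold gave 0, and 1 fit or library totals gave 1. In tumor M-MDSC (2) the study's threshold gave 0, DESeq2, 1 fit and leaving out the 4 libraries gave 4, and no filter gave 5. M-MDSC against PMN-MDSC went from 6 to 2 at the study's threshold in spleen, and in tumor from 3 to 0, or to 5 without the filter. The difference in response between tumor and spleen went from 1 to 0 (study's threshold) or 2 (no filter) in PMN-MDSC, and from 0 to 2 (DESeq2) or 3 (no filter) in M-MDSC. Between the spleen cell types it went from 2 to 0 (study's threshold), 4 (no filter, library totals) or 1 (without the 4 libraries). Tumor against spleen in PMN-MDSC went from 6 to 8 without the filter or in 1 fit, and the remaining counts stayed within 1.5 times. The share of all genes called moved with the setting too. For treatment in spleen PMN-MDSC it went from 11.6% to 18.6% with DESeq2, 24.1% in 1 fit over all groups, 6.58% without the filter, 16.3% with library totals and 6.81% without the 4 libraries. In spleen M-MDSC it went from 19.6% to 12.8% (1 fit) and 7.7% (no filter), in tumor PMN-MDSC from 3.36% to 7.38% (DESeq2) and 2.91% (no filter), and in tumor M-MDSC from 2.88% to 9.53% (DESeq2), 8.11% (1 fit), 4.1% (no filter) and 5.66% (without the 4 libraries). For the difference in response between sites it went from 3.50% to 6.23% (DESeq2), 6.95% (1 fit), 2% (no filter) and 7.12% (library totals) in PMN-MDSC, and from 0.790% to 3.52% (DESeq2), 1.49% (1 fit) and 2.21% (no filter) in M-MDSC. Without the filter it was 5.1% for the difference between spleen cell types (from 10.9%) and 6.07% for tumor M-MDSC against PMN-MDSC (from 13.0%).

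With 1 library left out in turn, the counts ran from 1 to 2 for treatment in spleen PMN-MDSC, 0 to 2 in tumor PMN-MDSC and 0 to 3 in tumor M-MDSC, from 0 to 1 for the difference in response to treatment between tumor and spleen in either cell type, and from 0 to 3 for that between spleen cell types. They ran from 5 to 6 for tumor against spleen in either cell type, and from 4 to 7 in spleen and 2 to 4 in tumor for M-MDSC against PMN-MDSC. The share of all genes called ran from 0.926% to 5.49% for the difference in response between sites in PMN-MDSC, from 0.0802% to 2.85% in M-MDSC and from 6.7% to 16.5% between spleen cell types. Treatment calls lost this way were Lgals9 (4 of 8 fits) and Pvr (6 of 8) in tumor PMN-MDSC and Cd274 and Havcr2 (5 of 7 each) in tumor M-MDSC. Havcr2 between tumor and spleen PMN-MDSC in untreated mice was lost in 5 of 8, Lgals9 between tumor and spleen M-MDSC in 6 of 8 and between bulk tumor and M-MDSC in 5 of 8, Lgals9 between spleen cell types in 1 of 8, Cd40 between tumor cell types in 3 of 8, and the difference in the response of Havcr2 between tumor and spleen PMN-MDSC in 6 of 15. Between the responses of the spleen cell types Havcr2 was lost in 12 of 15 and Cd80 in 5 of 15. The cause was not tested. Depth limits Pdcd1lg2 and Cd276 and, in spleen PMN-MDSC, Cd40 and Pvr, which rest on few counts.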

Other observations

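Over the 8 MDSC group means of log2(CPM + 1), the genes most like Cd274 were Fth1, the ferritin heavy chain (Pearson r = 0.949), 4930430E12Rik (0.948) and Sqstm1, the autophagy receptor p62 (0.938). Those most like Cd80 were Gm37498 (0.995), Spty2d1 (0.984) and the inflammasome sensor Nlrp3 (0.984). Snrpa led for Cd40 (0.994), Lbh for Sirpa (0.961), and Cltc, Tmem33 and the matrix metalloproteinase Mmp19 were at 0.988 for Pvr. All points share the 30 libraries and the split by site, cell type and treatment, so these values are a description without a test.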
